A study of Mus musculus with 18 samples.

Results

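A set of 7 genes that mark the mesothelium were followed across 18 bulk RNA sequencing libraries of mouse colon. They were taken from the table of 35976 gene symbols by symbol alone: Msln, Muc16, Upk3b, Upk1b, Lrrn4, Gpm6a and Wt1, and all 7 were present. The libraries fall into 3 groups of 6, all collected on day 2 from about 100 mg of colon. The first group is TNBS colitis with ISM012-042, which the series title calls a gut-restricted PHD inhibitor. The second is TNBS colitis with vehicle. The third is a sham group without colitis. TNBS is a hapten that causes acute inflammation of the colon, and PHD enzymes mark hypoxia-inducible factor for degradation. The labels used here give no strain, sex, age or dose, and do not say how much of the colon wall or of the fat attached to it was kept. Replicate numbers come from the titles, and no source used here says whether each sample is its own animal. The p-values then measure only the spread between the samples, which may be technical.

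The mesothelium is the sheet of flat epithelial cells that covers the outer face of the gut, where it forms the serosa together with a thin layer of connective tissue. It also lines the peritoneal wall and covers the mesentery and its fat. Mesothelial cells secrete lubricating glycoproteins and hyaluronan, control fibrinolysis on the serosal surface, and give rise to fibroblast-like cells after injury. They are a small part of a piece of colon wall, so their transcripts are scarce in a bulk library. In such samples fewer cells of a type and less RNA per cell cannot be told apart.

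The values are TPM, a share of all transcripts that is set per gene length and sums to 1000000 in each library. It keeps no record of depth, so no counting interval can be given. Each library had 12681 to 14632 genes at 1 TPM or more. The 13 protein-coding mitochondrial genes took 20.1 to 39.8% of the total with ISM012-042, 22.4 to 57.8% in vehicle and 29.4 to 42.6% in sham, and a larger share lowers the TPM of all other genes. The tissue carried colon markers in every group. The summed TPM of 9 epithelial genes had a median of 13704 with ISM012-042, 11530 in vehicle and 13229 in sham. Replicate 2 of the ISM012-042 group and replicate 2 of the vehicle group stood apart in neutrophil transcripts, with S100a8 at 2994 and 12002 TPM, against at most 435 TPM in any other library. Hoxb13, a gene of the distal colon, spanned 0.329 to 219 TPM with ISM012-042, 1.52 to 179 TPM in vehicle and 9.05 to 288 TPM in sham, so the libraries differ within each group in a marker of position along the colon.

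The 7 genes lie on 6 chromosomes (RefSeq, GRCm38.p6). Msln is at chr17:25748613-25754378, Muc16 at chr9:18495445-18674821, Upk3b at chr5:136038496-136044993, Upk1b at chr16:38773182-38800203 and Gpm6a at chr8:54779434-55060878. Lrrn4 (chr2:132866686-132894010) and Wt1 (chr2:105126529-105173614) share chromosome 2. Wt1os, a long non-coding RNA gene beside Wt1, reached at most 0.191 TPM in any library. RefSeq promoter entries of GRCm38.p6 were matched for 4 of the 7 genes. The 250 bases before a start are shown for these 4, Upk3b, Lrrn4, Gpm6a and Muc16, because Msln, Upk1b and Wt1 had no entry. The windows of Upk3b, Lrrn4 and Gpm6a hold the TEAD letters GGAATG or the reverse complement CATTCC, and that of Muc16 does not. Capitals mark the TEAD letters and, in Upk3b, the GATA letters GATAAG. The Upk3b window is chr5:136038246-136038495 on the plus strand, the Lrrn4 window is chr2:132880863-132881112 on the minus strand, at a start inside the gene span above, the Gpm6a window is chr8:54779184-54779433 on the plus strand, and the Muc16 window is chr9:18674604-18674853 on the minus strand.
Upk3b: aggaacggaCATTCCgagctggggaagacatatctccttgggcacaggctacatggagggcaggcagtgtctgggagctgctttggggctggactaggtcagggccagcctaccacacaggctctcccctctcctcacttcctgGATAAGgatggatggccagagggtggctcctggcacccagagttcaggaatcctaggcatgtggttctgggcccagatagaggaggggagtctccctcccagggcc
Lrrn4: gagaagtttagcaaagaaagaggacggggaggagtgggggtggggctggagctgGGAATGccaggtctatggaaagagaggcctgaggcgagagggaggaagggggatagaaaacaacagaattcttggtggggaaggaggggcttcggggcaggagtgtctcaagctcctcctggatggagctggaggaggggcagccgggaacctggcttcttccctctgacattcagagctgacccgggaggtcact
Gpm6a: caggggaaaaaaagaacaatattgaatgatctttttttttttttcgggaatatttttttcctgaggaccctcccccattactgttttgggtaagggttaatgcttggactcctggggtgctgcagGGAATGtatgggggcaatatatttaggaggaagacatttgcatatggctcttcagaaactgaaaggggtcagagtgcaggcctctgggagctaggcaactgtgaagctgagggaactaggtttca
Muc16: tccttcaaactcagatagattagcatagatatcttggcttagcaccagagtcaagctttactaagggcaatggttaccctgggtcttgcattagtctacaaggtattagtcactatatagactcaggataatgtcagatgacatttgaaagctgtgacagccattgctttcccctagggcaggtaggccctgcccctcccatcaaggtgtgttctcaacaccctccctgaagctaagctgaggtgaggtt
The TEAD letters began at -241 in Upk3b, -196 in Lrrn4 and -125 in Gpm6a, counted from the transcription start, and the GATA letters at -106 in Upk3b. On either strand, the TEAD letters occur in 12.6% of 32851 promoter windows of the same length, and the GATA letters in 6.55%. The WT1 letters GCGTGGG, in 4.30% of all windows, were in none of the 5 windows of these 4 genes. The Muc16 window and a further Gpm6a window held none of the 3 motifs. No 2 matches overlapped. A match describes the letters only.

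Over all 18 libraries the mean level per gene length was highest for Msln, at 10.97 TPM, followed by Upk3b at 8.14, Upk1b at 4.26, Gpm6a at 3.06, Lrrn4 at 2.503, Wt1 at 1.79 and Muc16 at 0.237 TPM. The spread between libraries was wide beside the steps in this order, with a coefficient of variation within groups of 31.6 to 97.0%. The order did not hold in every library for most neighbours: Msln lay above Upk3b in 11 of 18 libraries, Upk3b above Upk1b in 16, Upk1b above Gpm6a in 12, Gpm6a above Lrrn4 in 13 and Lrrn4 above Wt1 in 13. Wt1 lay above Muc16 in all 18, and Muc16 reached 1 TPM in no library. Msln, Upk3b, Upk1b, Gpm6a, Lrrn4 and Wt1 were tested, as were 14129 genes in all, having reached 1 TPM in 6 or more libraries. Muc16 was not.

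Msln encodes mesothelin, a glycoprotein anchored to the mesothelial surface, and Muc16 encodes the large membrane mucin that binds mesothelin in human cells. Msln had a lowest, median and highest level of 3.83, 12.1 and 33.6 TPM with ISM012-042, of 3.29, 10.5 and 25.4 TPM in vehicle, and of 2.12, 6.83 and 7.64 TPM in sham. The 2 highest libraries of all were the 2 rich in neutrophil transcripts, 33.6 TPM in replicate 2 of the ISM012-042 group and 25.4 TPM in replicate 2 of the vehicle group. Of the 6 vehicle libraries, 5 lay above the highest sham library, and so did 4 of the 6 ISM012-042 libraries. The groups still overlapped, because vehicle replicate 3 and ISM012-042 replicates 4 and 5 lay within the sham range.
Muc16 had a lowest, median and highest level of 0.114, 0.461 and 0.622 TPM with ISM012-042, of 0.103, 0.131 and 0.383 TPM in vehicle, and of 0.076, 0.126 and 0.225 TPM in sham. In 4 ISM012-042 libraries, replicates 1, 4, 5 and 6, it lay above every vehicle and every sham library, while replicates 2 and 3 lay among the others. These levels are low, and their precision beyond the spread between replicates is unknown.

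Upk3b and Upk1b encode uroplakins, membrane proteins first known from the bladder surface and also made by mesothelial cells. Upk3b had a lowest, median and highest level of 4.004, 10.1 and 23.7 TPM with ISM012-042, of 3.18, 4.64 and 20.1 TPM in vehicle, and of 1.48, 5.40 and 9.48 TPM in sham. Vehicle replicate 4, at 20.1 TPM, stood far above the other vehicle libraries, of which the next was at 5.61 TPM. The other vehicle libraries lay within the sham range, and 4 of 6 ISM012-042 libraries exceeded the highest sham library.
Upk1b had a lowest, median and highest level of 2.66, 4.37 and 12.998 TPM with ISM012-042, of 2.24, 4.59 and 7.67 TPM in vehicle, and of 0.582, 2.06 and 4.04 TPM in sham. All 6 libraries of either colitis group lay above the sham median, 4 with ISM012-042 and 3 with vehicle lay above the highest sham library, and the ranges overlapped.
Other genes of the bladder surface were at or near 0. Upk2 was listed at 0 in 16 libraries and reached 0.105 TPM at most, and Upk3a was listed at 0 in 11 libraries and reached 0.170 TPM at most. Upk1a, a uroplakin that was present at 3.94 to 10.1 TPM, differed from these in level. It fell in vehicle against sham, by 0.62 ± 0.16 on the log2 scale (SE, n = 6 per group, limma adjusted p 0.0315).

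Lrrn4 encodes a neuronal-type leucine-rich repeat membrane protein that is also a mesothelial marker, and Gpm6a encodes a membrane glycoprotein that neurons make as well. Lrrn4 had a lowest, median and highest level of 2.19, 3.14 and 7.43 TPM with ISM012-042, of 0.642, 1.54 and 5.80 TPM in vehicle, and of 0.228, 1.36 and 2.49 TPM in sham. All 6 ISM012-042 libraries lay above the median of either other group, and vehicle replicate 4 was again the high vehicle library.
Gpm6a had a lowest, median and highest level of 2.91, 3.55 and 6.27 TPM with ISM012-042, of 1.31, 1.77 and 5.41 TPM in vehicle, and of 1.27, 3.04 and 3.39 TPM in sham. Its median, like that of Upk3b, was lowest in vehicle. In 5 of 6 vehicle libraries it was below every ISM012-042 library, and the exception was replicate 4. Enteric neurons also express Gpm6a. The 12 neuron markers summed to a median of 124 TPM with ISM012-042, 118 TPM in vehicle and 94.4 TPM in sham. With limma, 0 of the 11 tested passed in any comparison. Of all genes, 0% passed in ISM012-042 against vehicle, 4.46% in vehicle against sham and 1.42% in ISM012-042 against sham. At an unadjusted limma p under 0.05, 0, 0 and 1 of the 11 were higher in that order of comparisons. Of all genes, 18.9%, 3.16% and 16.3% were. Over 18 libraries, Gpm6a did not pass with the mean log2 level of the 11 tested neuron markers (r = 0.32, rho = 0.33). The permutation p was adjusted to 0.404 and 0.390 over 56 relations. Within groups r was -0.10 with ISM012-042, 0.76 in vehicle and 0.51 in sham. How much of the Gpm6a level came from neurons was not tested.

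Wt1 encodes a zinc finger transcription factor of the mesothelium, also known from kidney podocytes. Wt1 had a lowest, median and highest level of 0.946, 3.13 and 3.79 TPM with ISM012-042, of 0.459, 1.16 and 4.80 TPM in vehicle, and of 0.366, 0.844 and 1.41 TPM in sham. In 5 of 6 ISM012-042 libraries it lay above every sham library and above every vehicle library but replicate 4, and the exception, replicate 3 at 0.946 TPM, lay within the sham range. Nphs1, a podocyte gene, stayed at or below 0.231 TPM. Podxl, a sialomucin of podocytes that vessels and mesothelium also make, had a median of 9.07 TPM with ISM012-042, 6.75 TPM in vehicle and 5.48 TPM in sham, with a log2 fold change of 0.81 ± 0.27 in ISM012-042 against sham (SE, limma adjusted p 0.135), and its part in the Wt1 levels was not tested.

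**Figure D1:**
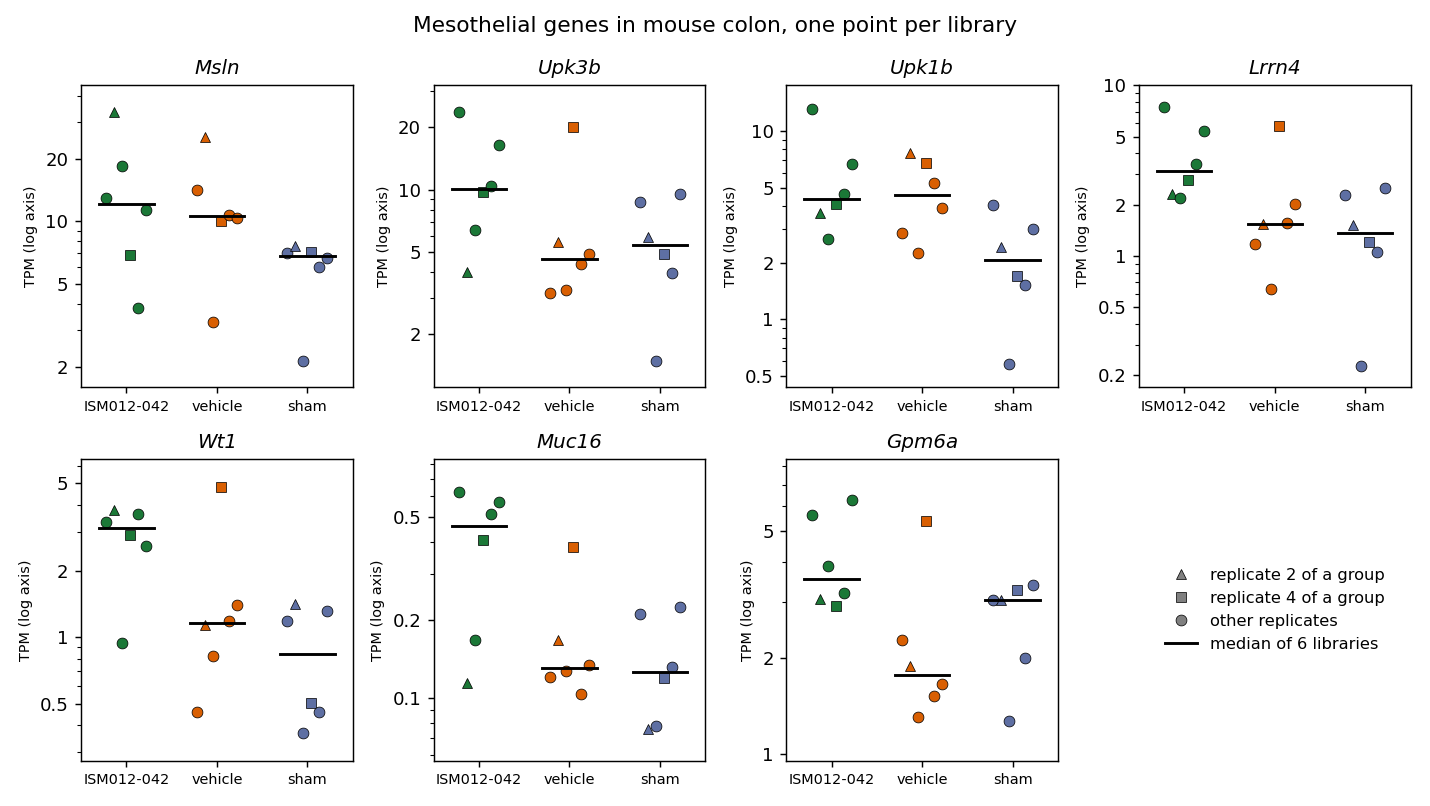
TPM of each mesothelial gene on a log axis, 1 point per library, with the ISM012-042, vehicle and sham groups from left to right and the median of 6 libraries as a line. Triangles are replicate 2 and squares replicate 4 of a group: the vehicle square is the highest vehicle point of Upk3b, Lrrn4, Wt1, Muc16 and Gpm6a, and the ISM012-042 and vehicle triangles are the highest points of Msln.

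None of the 6 tested genes passed in any of the 3 comparisons, with limma on log2(TPM + 1), Benjamini-Hochberg adjustment over 14129 genes and a threshold of 0.05. The comparisons share groups, so they are not independent of each other. Each fold change is a difference of mean log2(TPM + 1) ± SE between groups of 6 libraries, a scale on which low genes appear to change less than they do in TPM.

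The comparison of ISM012-042 with vehicle asks what the compound did within colitis. All 6 tested genes had a positive fold change, as did 13011 of all 14129 genes tested. The values were 0.77 ± 0.44 for Upk3b, 0.72 ± 0.33 for Lrrn4 and 0.68 ± 0.25 for Gpm6a. They were 0.66 ± 0.29 for Wt1, 0.17 ± 0.33 for Upk1b and 0.13 ± 0.44 for Msln. The limma adjusted p lay between 0.233 for Gpm6a and 0.840 for Msln, so 0 of 6 passed, and 0% of all genes passed. At an unadjusted limma p under 0.05, Gpm6a, Wt1 and Lrrn4 were higher, 3 of 6, where 18.9% of all genes were higher by that measure and 0.127% lower. The median fold change was 0.67 over the 6 genes and 0.30 over all genes tested. Muc16, fitted without the filter, had 0.24 ± 0.09 with an adjusted p of 0.330.
The median of all genes depended on the scaling. After scaling libraries by median ratios it was 0.01, and the fold changes became 0.49 for Upk3b, 0.50 for Lrrn4, 0.43 for Gpm6a and 0.44 for Wt1, while Upk1b and Msln turned to -0.10 and -0.17. Upk1b also turned, to -0.07, without ISM012-042 replicate 1. Msln turned to -0.16 without ISM012-042 replicate 2, rich in neutrophil transcripts, and equally without vehicle replicate 3. Without vehicle replicate 4 the Upk3b value was 1.11 and the Lrrn4 value 0.98, and neither passed (adjusted p 0.262 and 0.256).

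The comparison of vehicle with sham asks what TNBS colitis did without the compound. Upk1b had a fold change of 0.86 ± 0.33 and Msln of 0.79 ± 0.44, while Wt1 had 0.37 ± 0.29, Lrrn4 0.26 ± 0.33, Upk3b 0.11 ± 0.44 and Gpm6a -0.19 ± 0.25. The limma adjusted p lay between 0.160 for Upk1b and 0.932 for Upk3b, so 0 of 6 passed, where 4.46% of all genes did, 0.326% higher and 4.13% lower. At an unadjusted limma p under 0.05 only Upk1b was higher, 1 of 6, where 3.16% of all genes were higher and 14.9% lower. The median fold change was 0.32 over the 6 genes and -0.07 over all genes tested. The Upk3b value changed sign with single libraries, to -0.23 without vehicle replicate 4 and to -0.15 without sham replicate 3. Without vehicle replicate 4, Lrrn4 was at 0.0034, Wt1 at 0.11 and Gpm6a at -0.40, and without sham replicate 3, Lrrn4 was at 0.075 and Gpm6a at -0.32. Without vehicle replicate 3, Lrrn4 was at 0.41 and Gpm6a at -0.10. Muc16 had 0.04 ± 0.09 without the filter (adjusted p 0.914).

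The comparison of ISM012-042 with sham gave the largest differences of the 3 for 5 of the 6 tested genes. Wt1 and Upk1b each had a fold change of 1.03 (SE 0.29 and 0.33), Lrrn4 of 0.98 ± 0.33, Msln of 0.92 ± 0.44, Upk3b of 0.88 ± 0.44 and Gpm6a of 0.49 ± 0.25. As mean TPM, Wt1 was at 2.87 ± 1.04 with ISM012-042 and 0.875 ± 0.482 in sham, and Upk1b at 5.79 ± 3.78 with ISM012-042 and 2.21 ± 1.22 in sham (SD, n = 6 each). The limma adjusted p was 0.0816 for Wt1, 0.123 for Upk1b, 0.131 for Lrrn4 and 0.238 to 0.260 for the other 3, so 0 of 6 passed, where 1.42% of all genes did, 0.545% higher and 0.871% lower. At an unadjusted limma p under 0.05, 4 of 6 were higher, where 16.3% of all genes were higher and 4.44% lower. The median was 0.95 over the 6 genes and 0.21 over all genes tested, and 0.02 over all genes after median-ratio scaling, where the 6 values ran from 0.33 for Gpm6a to 0.90 for Wt1. Muc16 had 0.28 ± 0.09 without the filter (adjusted p 0.175).
Wt1 was near the threshold, and single choices moved it across. It passed without ISM012-042 replicate 3, at 1.22 with an adjusted p of 0.0353, and without vehicle replicate 4, at 1.03 with 0.0317. It also passed when only the 2 groups compared were fitted (0.0351), with the Hoxb13 level as a covariate (0.0459) and with the mitochondrial share as a covariate (0.0313). The 2 covariates were added after the data were seen. Of all 14129 genes, 477, 1108 and 1213 were called higher in these 3 fits, against 77 in the main fit. Without ISM012-042 replicate 3 it was 67 of 14036 genes, and without vehicle replicate 4 it was 59 of 14068. Over all 29 alternatives the adjusted p of Wt1 ran from 0.0313 to 0.180.

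**Figure D2:**
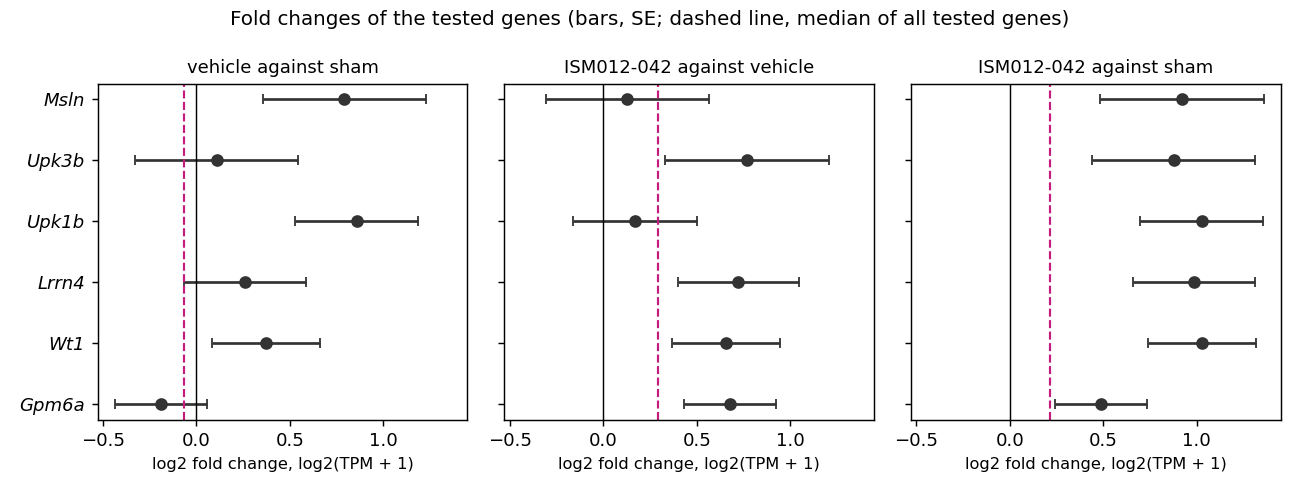
Fold changes of the 6 tested genes as differences of log2(TPM + 1), with bars for the SE, in vehicle against sham, ISM012-042 against vehicle and ISM012-042 against sham. The dashed line is the median of all genes tested, at -0.07, 0.30 and 0.21, and all 6 genes lie to its right in ISM012-042 against sham.

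The genes other than Msln moved together from library to library. Over 18 libraries and 21 pairs of the 7 genes, 16 pairs passed by Pearson and 14 by Spearman correlation of log2(TPM + 1), with permutation p-values adjusted over the pairs. Every pair without Msln passed by Pearson, and all of these but Upk1b with Gpm6a by Spearman. For Upk1b with Gpm6a, r was 0.55, and 0.28 without ISM012-042 replicate 1 and sham replicate 3. The closest pair was Upk3b and Lrrn4, with r = 0.96 and rho = 0.91, both at a permutation p of 1e-05, the smallest that 100000 permutations can give (adjusted 5.25e-05 and 0.00021). It remained at 0.93 without the 2 libraries farthest from the median of Upk3b, ISM012-042 replicate 1 and vehicle replicate 4. Within the groups it was 0.94 with ISM012-042, 0.96 in vehicle and 0.999 in sham.
Upk3b also followed Muc16 (r = 0.87, rho = 0.84) and Gpm6a (r = 0.86, rho = 0.78), with permutation p-values adjusted to 5.25e-05 for both r, and to 0.00035 and 0.00098 for rho. These were 0.83 and 0.80 without the same 2 libraries, and 0.85 each after every group was centred on its own mean. Wt1 followed Lrrn4 (r = 0.84, rho = 0.87, permutation p adjusted to 9e-05 and 0.00021). That pair was looser with ISM012-042, at 0.34, than in vehicle, at 0.94, or sham, at 0.82, a difference that was not tested. Within the ISM012-042 group, r of Wt1 was 0.19 with Upk3b, 0.45 with Upk1b, 0.36 with Muc16 and -0.13 with Gpm6a. All values of a library share its total. After median-ratio scaling, r of Upk3b was 0.95 with Lrrn4, 0.87 with Muc16 and 0.88 with Gpm6a. That of Wt1 with Lrrn4 was 0.84.

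Msln, the most abundant of the genes, did not follow Upk3b. Its correlation with Upk3b was r = 0.18 and rho = 0.13 (permutation p adjusted to 0.488 and 0.646), and 0.09 without the 2 libraries farthest from its median, ISM012-042 replicate 2 and sham replicate 3. By group it was -0.47 with ISM012-042, 0.14 in vehicle and 0.85 in sham, where sham replicate 3 was lowest in both genes. Of the 6 pairs with Msln only that with Upk1b passed, by Pearson (r = 0.52, permutation p adjusted to 0.0354) and not by Spearman (rho = 0.47, adjusted 0.0735).

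**Figure D3:**
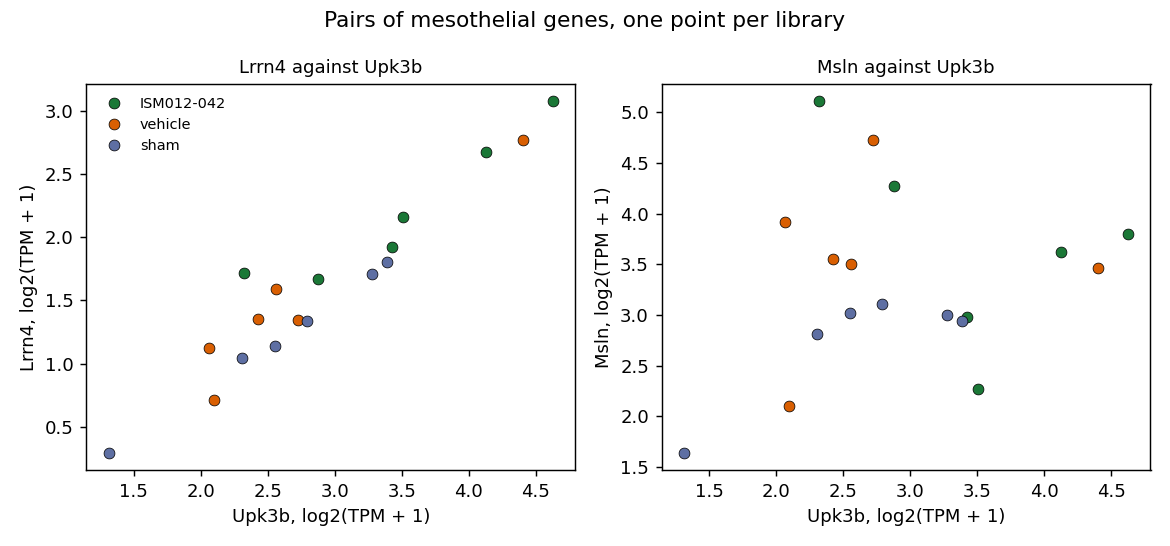
Log2(TPM + 1) of Lrrn4 (left) and Msln (right) against Upk3b, 1 point per library, coloured by group. Lrrn4 rises with Upk3b along 1 line through all 3 groups (r = 0.96), and Msln does not (r = 0.18).

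The libraries can be read one by one from the same values. Vehicle replicate 4 had the highest vehicle level of Upk3b (20.1 TPM), Lrrn4 (5.80 TPM), Wt1 (4.80 TPM), Muc16 (0.383 TPM) and Gpm6a (5.41 TPM), but not of Msln (10.04 TPM) or Upk1b (6.77 TPM). That library was also the highest vehicle library in smooth muscle genes. The mean log2(TPM + 1) of 10 such genes was 8.19 there, and the next vehicle library was at 6.90. ISM012-042 replicate 1 was the highest of all 18 in Upk3b (23.7 TPM), Upk1b (12.998 TPM), Lrrn4 (7.43 TPM) and Muc16 (0.622 TPM). Sham replicate 3 was the lowest of all 18 in every one of the 7 genes but Muc16, where sham replicate 2 was lower. The sum of the 7 genes ran from 29.7 to 66.6 TPM with a median of 41.9 with ISM012-042, from 11.7 to 53.3 TPM with a median of 24.6 in vehicle, and from 6.13 to 26.6 TPM with a median of 20.4 in sham.

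Markers of other cells moved with 3 of the genes, Wt1, Lrrn4 and Msln, by at least 1 of the 2 correlations. In a family of 56 relations between the 7 genes and 8 measures of the libraries, Wt1 followed the mean log2 level of 11 adipocyte genes (r = 0.79, rho = 0.82, permutation p adjusted to 0.0112 and 0.00392). The value was 0.72 without the 2 libraries farthest from the median, sham replicates 3 and 4. Within groups it was 0.84 with ISM012-042, 0.67 in vehicle and 0.88 in sham. Lrrn4 followed the same genes by rank (rho = 0.72, permutation p adjusted to 0.035) but missed by Pearson (r = 0.63, adjusted 0.0658).
The adipocyte genes summed to between 296 and 4690 TPM with a median of 2632 with ISM012-042, between 103 and 3517 TPM with a median of 977 in vehicle, and between 109 and 3773 TPM with a median of 237 in sham. None of the 11 passed with limma in any comparison. Of all genes, 0% passed in ISM012-042 against vehicle, 4.46% in vehicle against sham and 1.42% in ISM012-042 against sham. At an unadjusted limma p under 0.05, 0, 0 and 3 of the 11 were higher in that order of comparisons. Of all genes, 18.9%, 3.16% and 16.3% were. The median fold change of the 11 was 1.09, 1.13 and 2.31 in the same order. Fat attached to the colon wall is covered by mesothelium too, and the part of the adipocyte signal in the Wt1 difference was not tested.

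Msln followed the mean log2 level of the neutrophil genes by Pearson (r = 0.69, permutation p adjusted to 0.0389) but not by rank (rho = 0.57, adjusted 0.126). It fell to 0.38 without ISM012-042 replicate 2 and vehicle replicate 2, so the relation rests on those libraries. Within groups it was 0.68 with ISM012-042, 0.71 in vehicle and -0.13 in sham. The neutrophil genes summed to a median of 170 TPM with ISM012-042, 544 TPM in vehicle and 8.88 TPM in sham, and S100a8, S100a9 and Retnlg rose in vehicle against sham, by 6.63, 6.66 and 4.15 on the log2 scale (limma adjusted p 0.00616, 0.00605 and 0.0167). Without both of those libraries the Msln fold change was 0.08 in ISM012-042 against vehicle, 0.56 in vehicle against sham and 0.63 in ISM012-042 against sham, with limma adjusted p of 0.896, 0.437 and 0.405. Msln also ran lower where the mitochondrial share was higher, without passing (r = -0.57, rho = -0.67, permutation p adjusted to 0.108 and 0.0657). That r was -0.75 without ISM012-042 replicate 2 and vehicle replicate 5. Within groups it was -0.98 with ISM012-042, -0.53 in vehicle and -0.94 in sham. With the mean of the fibroblast genes, Msln did not pass either (r = 0.64, rho = 0.52, permutation p adjusted to 0.0658 and 0.135). The fibroblast r was 0.33 without ISM012-042 replicate 2 and vehicle replicate 3. Within groups it was 0.89 with ISM012-042, 0.69 in vehicle and -0.12 in sham. None of the 7 genes passed with Hoxb13, where Upk1b had r = -0.48 and rho = -0.64 (permutation p adjusted to 0.196 and 0.068), and r was -0.46 for Upk3b and -0.47 for Muc16 (adjusted 0.217 for both). Nor did any pass with the mean of 10 smooth muscle genes, where Gpm6a had r = 0.59 and rho = 0.57 (permutation p adjusted to 0.108 and 0.126). That r was 0.38 without ISM012-042 replicate 6 and vehicle replicate 4. Within vehicle r was 0.93 for Gpm6a and 0.97 for Upk3b, with ISM012-042 0.80 and 0.32, and in sham -0.16 and 0.098. The 10 genes summed to a median of 3415 TPM with ISM012-042, 1907 TPM in vehicle and 4095 TPM in sham. Their part in these levels was not tested.

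**Figure D4:**
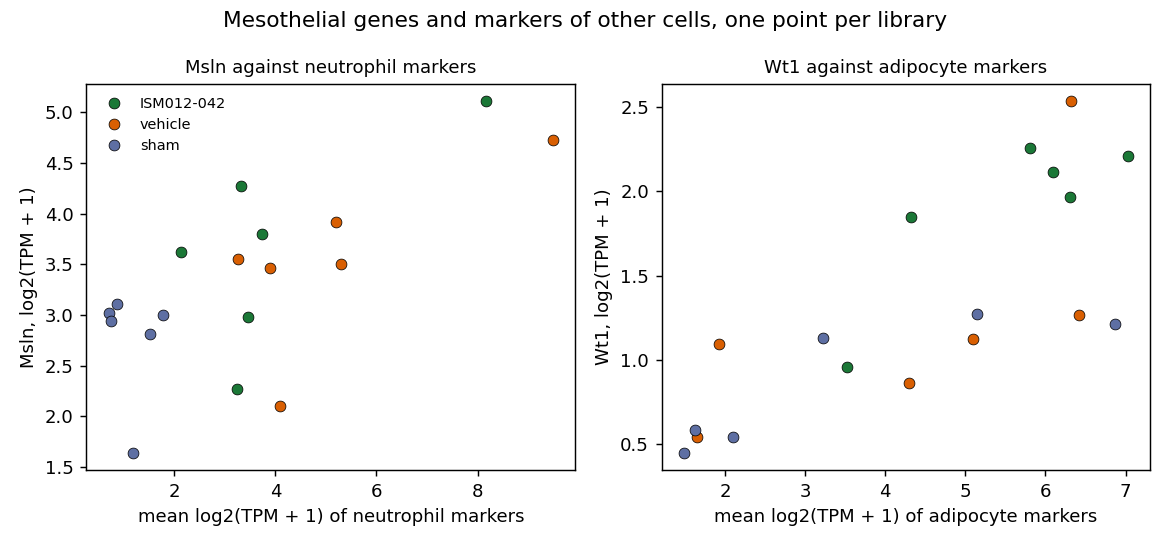
Log2(TPM + 1) of Msln against the mean log2(TPM + 1) of neutrophil markers (left) and of Wt1 against that of adipocyte markers (right), 1 point per library. The 2 points at the far right of the Msln panel are replicate 2 of the ISM012-042 and vehicle groups, and Wt1 rises with the adipocyte markers in all 3 groups (r = 0.79).

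Of 17 other genes known from mesothelial cells, 12 passed the filter and 0 passed the test in each of the 3 comparisons, where 0%, 4.46% and 1.42% of all genes did, in ISM012-042 against vehicle, vehicle against sham and ISM012-042 against sham. At an unadjusted limma p under 0.05, 1, 2 and 4 of the 12 were higher in that order of comparisons, where 18.9%, 3.16% and 16.3% of all genes were, and none was lower. Their median fold changes were 0.33, 0.06 and 0.56. The most abundant of them, Krt19, Krt7, Slpi and Pdpn, are made by many epithelial or inflamed cells. Krt7, a keratin, had a median of 130 TPM with ISM012-042, 127 TPM in vehicle and 68.2 TPM in sham (0.84 ± 0.29 in vehicle against sham, limma adjusted p 0.109). Slpi, a secreted inhibitor of neutrophil proteases, had a median of 73.6 TPM with ISM012-042, 88.6 TPM in vehicle and 26.0 TPM in sham (1.71 ± 0.53 in vehicle against sham, adjusted p 0.0792).
Over 18 libraries that share their totals, some of these genes ran with Upk3b and others with Msln. The following were chosen for their r, which is a description. Pkhd1l1 (r = 0.90), Nkain4 (0.86), Crb2 (0.86), Bnc1 (0.86), Igfbp6 (0.76) and Rspo1 (0.71) followed Upk3b, and their r with Msln lay between -0.01 and 0.47. Pdpn (0.83), Krt7 (0.79) and Slpi (0.76) followed Msln, and their r with Upk3b lay between -0.05 and 0.09. Others did not divide in this way: r with Upk3b and with Msln was 0.43 and 0.62 for Aldh1a2, 0.51 and 0.55 for Ptgis, and 0.60 and 0.37 for Ildr2. For Calb2, Krt19, Tbx18, Upk3bl and Gata5 it lay between -0.32 and 0.52 with Upk3b, and between -0.41 and 0.49 with Msln. Nkain4 had its highest level in vehicle replicate 4, at 8.44 TPM, and was at 0.945 TPM in the neutrophil-rich vehicle replicate 2, while Pdpn reached 21.8 and 44.7 TPM in those libraries.

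**Figure D5:**
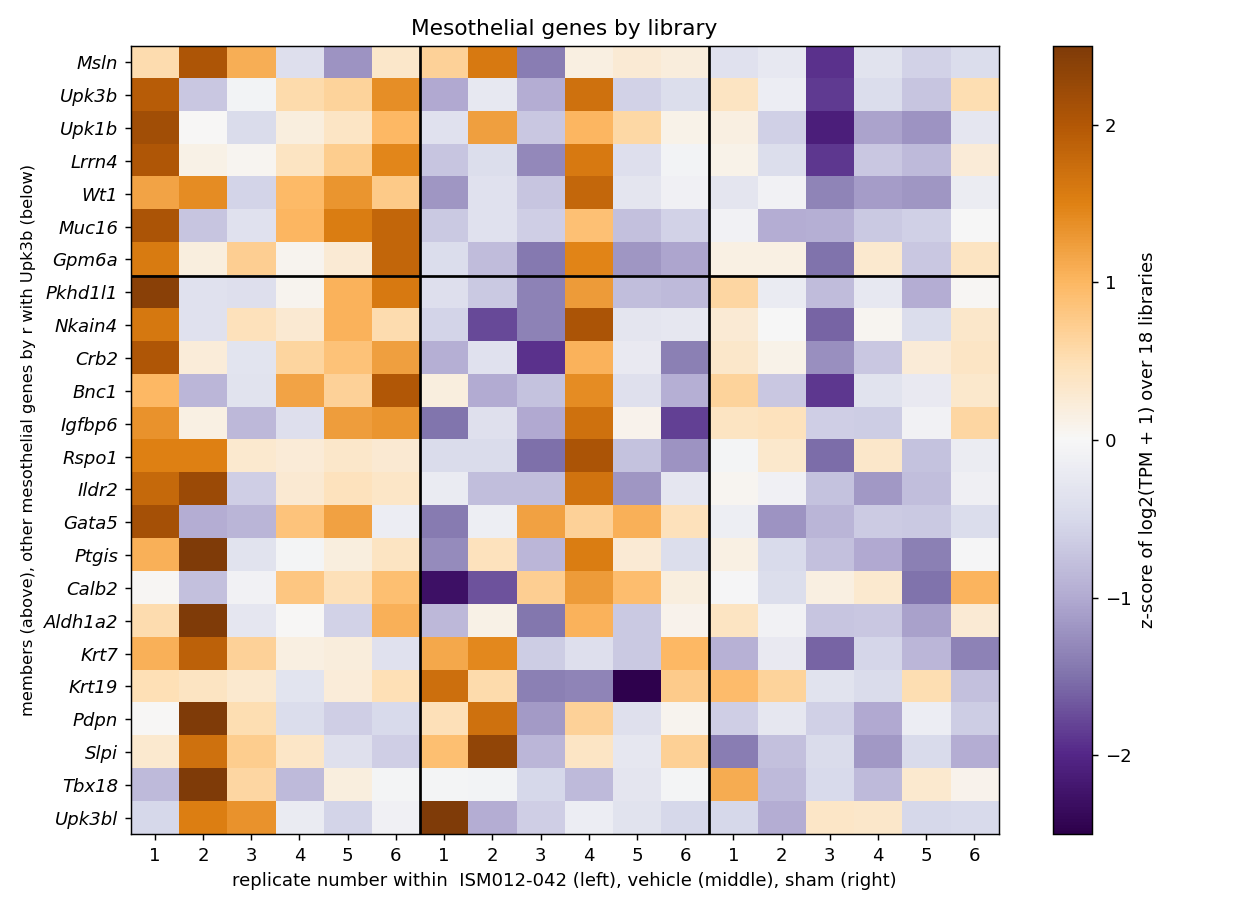
Z-scores of log2(TPM + 1) over 18 libraries for the 7 mesothelial genes (top) and 17 other mesothelial genes in order of their r with Upk3b (below), with 6 libraries each of ISM012-042, vehicle and sham from left to right. ISM012-042 replicate 1 and vehicle replicate 4 are high in most rows from Upk3b to Ildr2, and replicate 2 of both colitis groups is high in Msln, Krt7, Pdpn and Slpi.

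A further list held 13 genes of fibrinolysis, hyaluronan, TGF-beta and leukocyte adhesion, all of which other cells of the colon express too. Of these 9 were tested, among them the fibrinolysis genes Plat, Plau and Plaur, the hyaluronidase gene Hyal2, and Tgfb1, Tgfb2, Vcam1 and Icam1. The hyaluronan synthases Has1, Has2 and Has3 and the protease inhibitor Serpinb2 were too low to be tested, so the counts say nothing of hyaluronan synthesis. None of the 9 passed in any comparison with limma. At an unadjusted p under 0.05, 0 were higher in ISM012-042 against vehicle, 2 in vehicle against sham and 2 in ISM012-042 against sham, where 18.9%, 3.16% and 16.3% of all genes were higher, and 0 were lower. The median fold change of the 9 was 0.10 in ISM012-042 against vehicle, 0.49 in vehicle against sham and 0.69 in ISM012-042 against sham. Plaur, the urokinase receptor, had a median of 8.73 TPM with ISM012-042, 13.6 TPM in vehicle and 4.24 TPM in sham, and 2.07 ± 0.66 in vehicle against sham (limma adjusted p 0.0856). Hyal2, a hyaluronidase, had 0.69 ± 0.22 in ISM012-042 against sham (limma adjusted p 0.121). Has1, a hyaluronan synthase, was listed at 0 in 1 library and stayed at or below 2.39 TPM.

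Among 13169 named genes tested outside the 7, the one most like them was Myrf, a membrane-bound transcription factor best known from myelin formation. Its r with the mean z-score of the 6 tested mesothelial genes was 0.95 over 18 libraries, and 0.92 after each group was centred on its own mean. Myrf ran from 1.23 to 2.84 TPM with a median of 1.78 with ISM012-042, from 0.447 to 2.59 TPM with a median of 0.907 in vehicle, and from 0.201 to 1.27 TPM with a median of 0.674 in sham. Its highest libraries were ISM012-042 replicate 1 and vehicle replicate 4, and its lowest was sham replicate 3. The next 9 were Etv5, Slc36a4, Slc16a7, Slc12a8, Pde2a, Bcat2, Rap1gap, Reep5 and Rapgef3, with r of 0.85 to 0.88, and 0.77 to 0.85 after centring. They were picked as the highest of many, so their r is a description with no test.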

How the data were processed

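Per the labels' protocols, total RNA of mouse colon was purified with TRI Reagent and RNeasy columns. The authors deposited TPM per gene symbol. Per the submitters' processing notes, mm10 and DRAGEN 4.0.3 were used, in roles they do not state. How reads were counted, on which annotation and strand, is not given in the sources used here. TPM keeps no depth and falls for all genes where a few abundant transcripts take a larger share.

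Groups and replicate numbers came from the titles. After log2(TPM + 1), genes at 1 TPM or more in 6 or more libraries were kept (14129 of 35976), and all 18 libraries entered 1 fit in limma 3.58.1 (R 4.3.3), with trend, robust empirical Bayes and no covariate. P-values are two-sided, with Benjamini-Hochberg adjustment over all genes tested at 0.05. Correlations used two-sided permutation tests with 100000 permutations (scipy 1.17.1). The fit was tested on simulated data. No 2 libraries were identical.

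The 7 members and the marker lists were chosen with earlier results of these data known. The rule for named genes takes the 7, each list's called genes and otherwise up to 4 of its most abundant, and the 10 genes of highest correlation with the mean z-score of the 6 tested members. Other genes, including those named for their fold change or correlation, were chosen after their values were seen. Alternatives were other pseudocounts, no filter, a minimum of 5 TPM, plain empirical Bayes, median-ratio scaling, mitochondrial genes left out, only the groups compared, a replicate block and each library left out. Added after seeing the data were Hoxb13 or mitochondrial share as a covariate, and removal of both neutrophil-rich libraries.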

Additional observations from a re-analysis of the deposited data

Results flagged for a closer look

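In 21 sets, each of 1 gene in 1 group of 6 libraries, the gap between the highest or lowest library and its nearest neighbour was divided by the range of the set, on log2(TPM + 1), and held against Dixon's 95% critical value of 0.625. Chance alone passes it in about 1 of 20 sets. 6 values did. In vehicle, replicate 4 was high in Upk3b (20.1 TPM, ratio 0.717), Wt1 (4.80 TPM, ratio 0.638), Muc16 (0.383 TPM, ratio 0.751) and Gpm6a (5.41 TPM, ratio 0.656), so 4 of the 6 fall in 1 library. Wt1 was low in ISM012-042 replicate 3 (0.946 TPM, ratio 0.684), and Msln was low in sham replicate 3 (2.12 TPM, ratio 0.797). On TPM itself Lrrn4 in vehicle replicate 4 also passed (ratio 0.736), and Wt1 in ISM012-042 replicate 3 did not (0.583).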

How the results depend on the processing

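Of 528 fold changes of the mesothelial genes under alternatives, 512 kept their direction and side of the threshold, 5 newly passed and 11 changed sign. In ISM012-042 against sham, 1 gene, Wt1, passed in place of 0 when only the groups compared were fitted. It also passed with Hoxb13 as a covariate (0.90) and with the mitochondrial share as a covariate (1.06). Of all 14129 genes, 477, 1108 and 1213 were called higher in these fits, against 77 in the main fit. Leaving out 1 library gave 0 to 1 of the mesothelial genes. In the other comparisons 0 passed under every alternative run. Sign changes in vehicle against sham were Upk3b at -0.24 with Hoxb13 as a covariate, and -0.23 and -0.15 without vehicle replicate 4 and sham replicate 3 (-0.23 to 0.26 over all libraries left out in turn). In ISM012-042 against vehicle Msln was -0.0056 with Hoxb13 as a covariate, -0.17 under median-ratio scaling, -0.017 with mitochondrial genes left out, -0.24 with the mitochondrial share as a covariate, and -0.16 without ISM012-042 replicate 2 or vehicle replicate 3 (-0.16 to 0.41 over all), and Upk1b was -0.10 under median-ratio scaling and -0.068 without ISM012-042 replicate 1 (-0.068 to 0.32 over all). The cause was not tested.

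Replicate numbers did not pair the libraries: the correlations of same-numbered libraries over 18 pairs ran from -0.38 to 0.61 with a median of 0.02, 6 were over 0.1, and 5 of 36 best matches had the same number. With a replicate block 0 of the mesothelial genes passed in any comparison.

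The share of all genes called depended on the settings. In vehicle against sham 46 were higher and 584 lower, against 511 and 1004 under median-ratio scaling, 403 and 905 with mitochondrial genes left out, 930 and 1267 with the mitochondrial share as a covariate, and 62 and 492 with the block. Higher calls were 29 without the filter, 29 with a pseudocount of 5, 167 with Hoxb13 as a covariate and 84 without both neutrophil-rich libraries, and lower calls were 308 with only the groups compared. Leaving out 1 library gave 20 to 110 higher and 314 to 881 lower. In ISM012-042 against sham 77 were higher and 123 lower, against 144 and 628 under median-ratio scaling, 729 and 398 with mitochondrial genes left out, 1213 and 538 with the mitochondrial share, 1108 and 271 with Hoxb13, 477 and 232 with only the groups compared, and 38 and 71 with the block. Higher calls were 50 without the filter. Leaving out 1 library gave 14 to 161 higher calls, and lower calls down to 62. Depth is unknown, so the precision of the lowest values, those of Muc16, could not be stated.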
